A study of Homo sapiens with 5 samples.

Results

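The genes described here encode the core of the human microRNA pathway: the nuclear processing enzyme DROSHA and its partner DGCR8, the export factor XPO5, the cytoplasmic enzyme DICER1, the Argonaute genes AGO1, AGO2, AGO3 and AGO4, and the scaffold genes TNRC6A and TNRC6B. They were chosen by name, as every probe set that the platform annotation lists for one of these 10 genes. This gave 43 of the 54675 probe sets on the array. Affymetrix 3' expression arrays gave their RNA levels in a Ewing sarcoma cell line, MHH-ES-1, 48 h after lipid transfection of a synthetic microRNA mimic at 50 nM. The groups were miR-483-5p with 2 arrays, a scrambled control mimic with 2 arrays and miR-483-3p with 1 array, so the controls also received a transfected RNA duplex. The second array of each pair is labelled a repeat of the first, with no word on a separate culture, so the spread behind each p-value may be technical rather than between cultures.

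A primary microRNA transcript is cut to a hairpin in the nucleus by DROSHA, which works with the RNA-binding protein DGCR8 as the microprocessor. XPO5 carries the hairpin to the cytoplasm, where DICER1 trims it to a duplex. One strand of the duplex is held by an Argonaute protein, and Argonaute recruits a TNRC6 protein, which in turn brings in the enzymes that shorten and decay the target RNA. A transfected mimic enters this pathway as a duplex, after the steps of DROSHA, XPO5 and DICER1, and shares Argonaute with the cell's own microRNAs.

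The deposited arrays had a common trimmed mean of 150, with median signals from 39.2 to 44.9, and any 2 arrays correlated at r = 0.969 to 0.980 across the probe sets tested, and probe sets are no replicates of each other. The GAPDH ratio of 3' to 5' probe sets, which grows with RNA degradation, was 1.09 and 1.10 with miR-483-5p, 1.02 and 0.996 with the scrambled mimic and 1.06 with miR-483-3p. Its part in the differences given here was not tested. All 8 Ewing sarcoma markers looked up, among them CD99 and NKX2-2, were above the filter on dim signals, with summed signals of 18993 to 20710 per array. The 2 leukocyte and 2 hepatocyte markers with a probe set of their own lay under that filter, and KRT18 was the only one of 4 epithelial and PECAM1 the only one of 3 endothelial markers above it. In RNA of whole cultures, fewer cells with a transcript and less of it per cell cannot be told apart.

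None of the 10 genes had a probe set that passed the test with either mimic. The brightest AGO2 probe set was dimmer in all mimic arrays than in both controls, and 2 AGO4 probe sets were brighter. All mimic arrays also lay above both controls in probe sets of DROSHA and AGO3, and below both in probe sets of XPO5, AGO1, AGO3 and TNRC6B. How often all mimic arrays lie on the same side of both controls over all probe sets was not counted, so AGO2 and AGO4 have no such share either. DICER1 and TNRC6B were dimmer in the single miR-483-3p array, which lay below both controls in 35.6% of all probe sets. XPO5 was dimmer with miR-483-5p, though in its brightest probe set the arrays overlapped those of the control. Of the 43 probe sets, 38 lay above the filter, which required a mean of at least 27.2 in signal, and were tested with limma on log2(signal + 32), a scale that understates the change of dim probe sets. With miR-483-5p against the control, 17 were higher and 21 lower, with a median of -0.028 beside -0.018 over all 32768 probe sets tested. With miR-483-3p, 15 were higher and 23 lower, with a median of -0.062 beside -0.0064.

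At an adjusted p under 0.05, limma called 0 of the 38 in each comparison, and 0% of all probe sets. At an unadjusted p under 0.05 it marked 4 of the 38 (10.5%) with miR-483-5p, beside 8.33% of all probe sets. Of these, 2 were higher, beside 4.06%, and 2 lower, beside 4.27%. With miR-483-3p it marked 7 (18.4%), beside 5.6% of all, with 2 higher, beside 2.01%, and 5 lower, beside 3.58%. The 7 belong to AGO2, AGO4, DICER1 and TNRC6B alone, and probe sets of 1 gene are not independent of each other. These counts moved when single arrays were left out, and so did the shares of all probe sets marked. The miR-483-3p count fell most without control array 1, where it no longer exceeded the share of all probe sets.

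Arrays of miR-483-5p and control lay apart in 13 of the 38 (34.2%), beside 39.8% of all probe sets, with 5 higher, beside 18.5%, and 8 lower, beside 21.2%. The single miR-483-3p array lay outside the range of the controls in 28 (73.7%), beside 68.1%, with 11 higher, beside 32.5%, and 17 lower, beside 35.6%. By this measure the members were near the background with both mimics. Between the mimics, 2 of 38 had an unadjusted p under 0.05 (5.26%, beside 5.71% of all), both higher with miR-483-5p, beside 3.27%, and 0 lower, beside 2.44%. The miR-483-5p arrays lay on 1 side of the miR-483-3p array in 20 of 38 (52.6%), beside 65.8%, with 15 higher, beside 33%, and 5 lower, beside 32.8%.

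**Figure D1:**
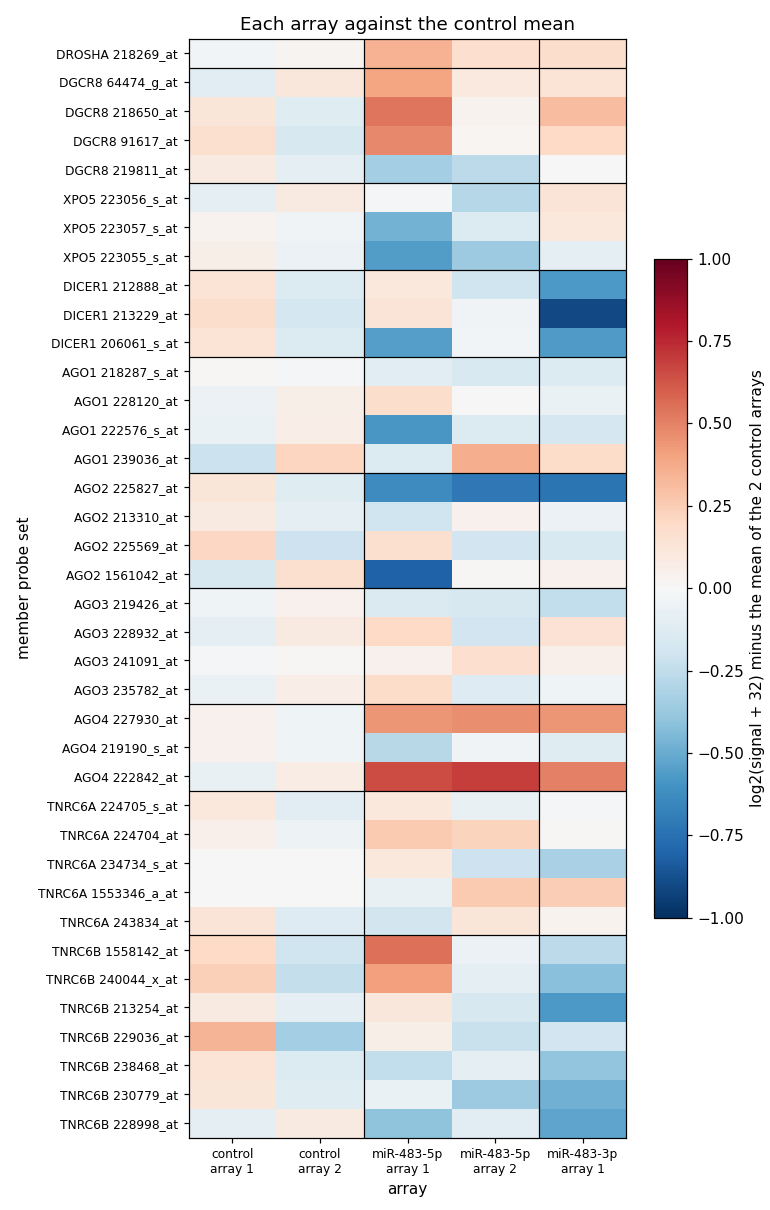
Each row is 1 of the 38 member probe sets above the filter and each column 1 array; colour gives log2(signal + 32) in that array minus the mean of the 2 control arrays, red for brighter and blue for dimmer. The AGO2 probe set 225827_at is blue in all 3 mimic arrays, the AGO4 probe sets 227930_at and 222842_at are red in all 3, and the DICER1 and most TNRC6B rows are blue in the miR-483-3p column.

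DROSHA, the RNase III enzyme that makes the first cut, has a single probe set. Its signal was 802 and 706 with miR-483-5p, 611 and 637 with the scrambled mimic and 710 with miR-483-3p. All mimic arrays lay above both controls, though the lowest of them was closer to the controls than to the other miR-483-5p array. The log2 difference was 0.26 with miR-483-5p (SE 0.16, limma adjusted p = 0.696) and 0.18 with miR-483-3p (SE 0.19, adjusted p = 0.991). The 95% interval of the first ran from -0.12 to 0.63.

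All 4 probe sets of DGCR8, the RNA-binding partner of DROSHA, are also listed for MIR1306, a microRNA hairpin that lies inside the DGCR8 gene on chromosome 22, so their signal is not assigned to one of the pair. The mature strands of that microRNA are shown because the annotation lists its gene for these probe sets. The listing does not make these signals a measure of the mature strands. The sequences are from RefSeq (GRCh38.p14, plus strand, at chr22:20086072-20086093 and chr22:20086112-20086129), with the seed, bases 2 to 8, in capitals. No other of the 2545 mature microRNAs in that table has either seed.
hsa-miR-1306-5p: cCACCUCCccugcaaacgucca
hsa-miR-1306-3p: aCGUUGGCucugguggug

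The brightest DGCR8 and MIR1306 probe set, 64474_g_at, had signals of 344 and 274 with miR-483-5p, 233 and 277 with the scrambled mimic and 283 with miR-483-3p. The second miR-483-5p array lay between the controls, so the groups overlapped. Its log2 difference with miR-483-5p was 0.25 (SE 0.18, limma adjusted p = 0.743), and it was 0.098 without miR-483-5p array 1 and 0.40 without array 2. Probe sets 218650_at and 91617_at differed by 0.28 and 0.25, also with overlapping arrays. Of the miR-483-5p arrays, only array 1 was clearly above the control mean there, by 0.53 in 218650_at and 0.48 in 91617_at. Array 2 was above it by 0.036 and 0.016. The miR-483-3p array was above it by 0.31 and 0.20 and above both controls, a position that 32.5% of all probe sets share. The fourth, 219811_at, went the other way, at 56.2 and 61.0 against 86.7 and 73.3, a log2 difference of -0.30 (SE 0.16, adjusted p = 0.657), while the miR-483-3p array, at 79.4, lay between the controls. The probe sets listed for DGCR8 therefore did not share a direction with miR-483-5p.

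XPO5, the RanGTP-dependent carrier of hairpins out of the nucleus, was dimmer with miR-483-5p in each of its 3 probe sets. In 223055_s_at the signal was 211 and 247 with miR-483-5p, 342 and 312 with the scrambled mimic and 305 with miR-483-3p. Both miR-483-5p arrays lay below both controls, and the miR-483-3p array was close under the second control. The log2 difference with miR-483-5p was -0.46 (SE 0.16, 95% interval -0.85 to -0.077, limma adjusted p = 0.565), beside -0.087 with miR-483-3p. In 223057_s_at the signals were 345 and 444 with miR-483-5p, 502 and 479 with the scrambled mimic and 531 with miR-483-3p. Here too the miR-483-5p arrays lay apart from the controls, at -0.30 (SE 0.18, adjusted p = 0.684), but the value was -0.13 without miR-483-5p array 1 and -0.47 without array 2. The brightest probe set, 223056_s_at, had 556 and 454 with miR-483-5p, 526 and 599 with the scrambled mimic and 618 with miR-483-3p. Its groups overlapped, with a log2 difference of -0.15 (SE 0.17, adjusted p = 0.839), which was -0.29 without miR-483-5p array 1, -0.014 without array 2, -0.24 without control array 1 and -0.061 without control array 2.

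Set directly against miR-483-3p, the miR-483-5p arrays were dimmer in all 3 XPO5 probe sets, by 0.28 to 0.41 on the log2 scale, and in each of them both miR-483-5p arrays lay below the miR-483-3p array. Over all probe sets tested, 32.8% had both miR-483-5p arrays below the single miR-483-3p array. The limma adjusted p-values of these differences were 0.902 to 0.929. Probe sets of 1 gene read the same RNA and are not independent of each other.

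DICER1, the RNase III enzyme that trims the hairpin, has 6 probe sets, of which 3 lay under the filter at signals of 2.1 to 36.6. In its brightest, 212888_at, the signal was 201 and 157 with miR-483-5p, 206 and 165 with the scrambled mimic and 114 with miR-483-3p. The miR-483-5p and control arrays interleaved, at a log2 difference of -0.047 (SE 0.19, limma adjusted p = 0.964, 95% interval -0.49 to 0.40), while the miR-483-3p array lay below all others, at -0.57 against the control (SE 0.23, adjusted p = 0.863).

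The probe set 213229_at had the lowest p of all members for miR-483-3p and was singled out after its values were seen. Its signal was 122 and 106 with miR-483-5p, 127 and 92.4 with the scrambled mimic and 43.4 with miR-483-3p. The single miR-483-3p array was again the lowest by a wide margin, with a log2 difference of -0.90 from the control (SE 0.22, limma adjusted p = 0.712) and a 95% interval of -1.43 to -0.37. The difference was -0.72 without control array 1 and -1.08 without control array 2, and it was -1.30 with a constant of 1 added before the logarithm and -0.54 with 100. Against miR-483-3p, the miR-483-5p arrays were higher by 0.95 (SE 0.22, adjusted p = 0.785). No probe set of the 32768 had a lower adjusted p in that comparison. The adjustment can give the same value to many probe sets, so this is not a rank.

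In 206061_s_at, the third DICER1 probe set above the filter, the signal was 55.3 and 93.7 with miR-483-5p, 109 and 84.3 with the scrambled mimic and 54.7 with miR-483-3p. The miR-483-3p value, 0.56 below the control on the log2 scale, was matched by the first miR-483-5p array. All 3 DICER1 probe sets tested thus had the miR-483-3p array below both controls, a position that 35.6% of all probe sets share. The miR-483-3p group is a single array assumed to vary like the pairs, and the 3 probe sets read the same RNA of that array.

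**Figure D2:**
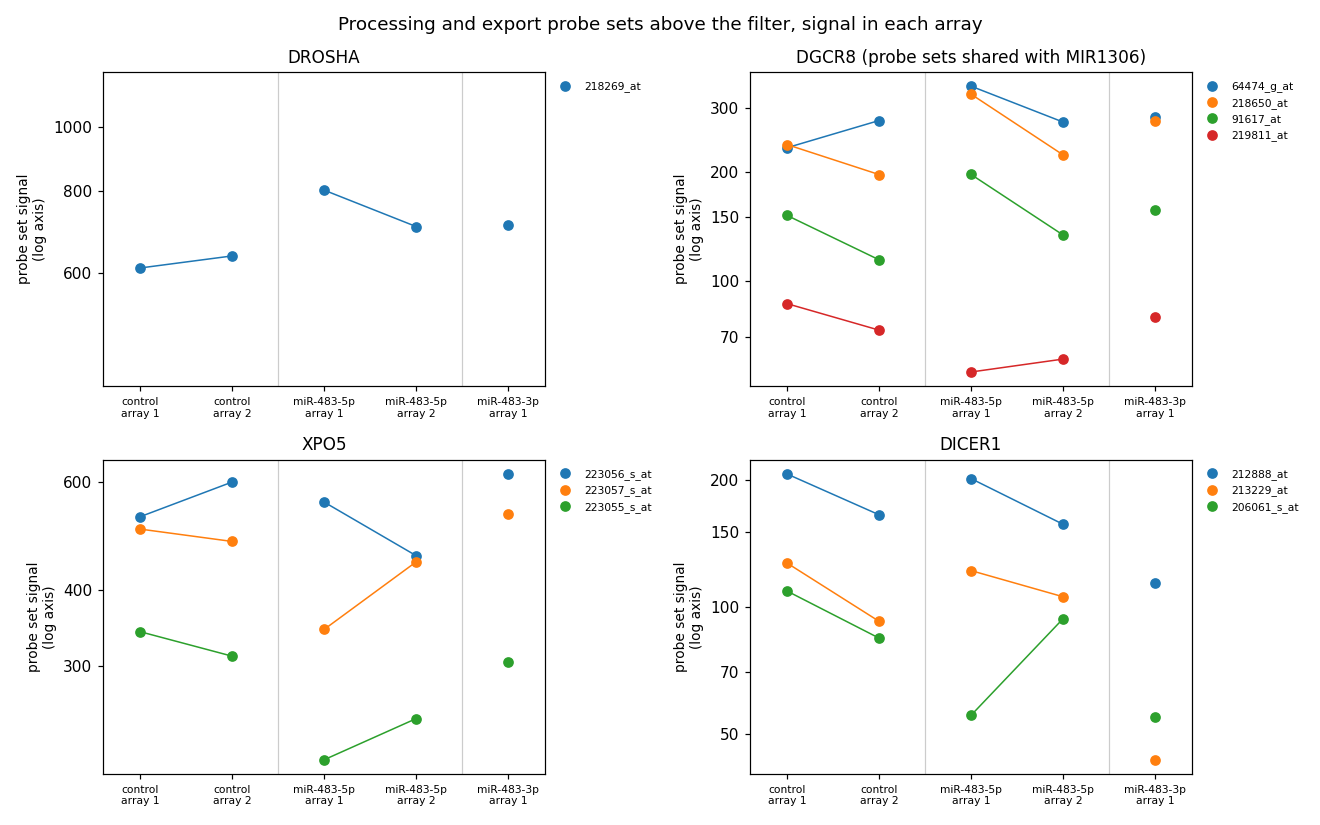
Signal of each DROSHA, DGCR8, XPO5 and DICER1 probe set above the filter (log axis) in each of the 5 arrays, with a line between the arrays of a pair. The 3 DICER1 probe sets are at 43.4 to 114 in the miR-483-3p array and at 84.3 to 206 in the controls, and XPO5 223055_s_at is lowest in the miR-483-5p arrays.

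The Argonaute proteins hold the guide strand. AGO2 cuts well-matched targets, and all 4 act in silencing through TNRC6 proteins. AGO4, AGO1 and AGO3 lie next to each other on chromosome 1, in that order and on the same strand, with no other protein-coding gene between them in RefSeq (GRCh38.p14). Their upstream sequences are shown because these genes are neighbours. The brightest AGO4 probe set was above the control and those of AGO1 and AGO3 slightly below it, none with a limma adjusted p under 0.05. A link between these sequences and the signals was not tested. Each is the 250 bases before the RefSeq start, plus strand, and capitals mark the GC box GGGCGG, searched on both strands. They lie at chr1:35807766-35808015 for AGO4, chr1:35882959-35883208 for AGO1 and chr1:35930855-35931104 for AGO3.
AGO4: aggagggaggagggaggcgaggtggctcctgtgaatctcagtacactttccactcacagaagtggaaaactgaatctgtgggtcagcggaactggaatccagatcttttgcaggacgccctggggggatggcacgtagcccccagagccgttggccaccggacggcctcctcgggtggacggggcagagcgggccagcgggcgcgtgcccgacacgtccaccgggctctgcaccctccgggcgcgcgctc
AGO1: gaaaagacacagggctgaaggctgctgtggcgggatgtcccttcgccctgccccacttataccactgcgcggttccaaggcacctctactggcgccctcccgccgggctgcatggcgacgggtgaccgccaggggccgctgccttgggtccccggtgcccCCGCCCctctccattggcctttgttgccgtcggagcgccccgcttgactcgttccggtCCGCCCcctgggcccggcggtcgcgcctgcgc
AGO3: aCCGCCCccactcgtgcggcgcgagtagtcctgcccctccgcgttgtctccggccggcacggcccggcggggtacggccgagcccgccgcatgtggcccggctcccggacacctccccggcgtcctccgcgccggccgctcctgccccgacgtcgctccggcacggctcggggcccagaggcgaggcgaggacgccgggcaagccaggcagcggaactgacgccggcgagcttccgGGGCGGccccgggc

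The AGO1 and AGO3 windows each hold 2 GC boxes and the AGO4 window none, and 42.6% of all 35116 RefSeq promoter windows of this length hold at least 1. The G and C content was 66.4% for AGO4, 71.6% for AGO1 and 80.0% for AGO3, beside a median of 58.0% over all windows. None of the 3 holds the TATA box TATAAA on either strand, which 10.7% of all windows do. A match describes letters in this window and says nothing about a factor.

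AGO4 was brighter with both mimics in 2 of its 3 probe sets above the filter. In 227930_at, its brightest, the signal was 190.2 and 194 with miR-483-5p, 137 and 127 with the scrambled mimic and 191 with miR-483-3p. All 3 mimic arrays were nearly equal and lay above both controls. The log2 difference was 0.45 with miR-483-5p (SE 0.15, 95% interval 0.093 to 0.81, limma adjusted p = 0.562) and 0.44 with miR-483-3p (SE 0.18, adjusted p = 0.884), against the same 2 control arrays. The value for miR-483-5p ran from 0.41 to 0.49 when single arrays were left out.

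The dimmer AGO4 probe set 222842_at had signals of 71.1 and 74.1 with miR-483-5p, 30.5 and 37.2 with the scrambled mimic and 61.2 with miR-483-3p. The mimic arrays again lay clear of the controls, which were close to the filter's 27.2. The log2 difference was 0.67 with miR-483-5p (SE 0.15, 95% interval 0.30 to 1.04, limma adjusted p = 0.518) and 0.50 with miR-483-3p (SE 0.19, adjusted p = 0.842). It had the lowest p of all members for miR-483-5p. Being dim, its value for miR-483-5p depended on the constant added before the logarithm and was 1.08 with a constant of 1 and 0.37 with 100. The third, 219190_s_at, had 46.5 and 61.2 with miR-483-5p, 66.4 and 60.4 with the scrambled mimic and 55.7 with miR-483-3p. Its miR-483-5p and control arrays overlapped, at a log2 difference of -0.16 (SE 0.16, adjusted p = 0.824), and the miR-483-3p array lay below both controls. The fourth AGO4 probe set lay under the filter at 8.3 to 23.5. Its miR-483-5p arrays, at 18.5 and 8.3, lay below the controls, at 23.5 and 20.9. So 2 probe sets of this gene stood apart upward with both mimics, and each of the others lay lower with 1 mimic.

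AGO2, the Argonaute with slicing activity, showed the widest downward difference of the members with miR-483-5p, in its brightest probe set. In 225827_at the signal was 464 and 435 with miR-483-5p, 803 and 671 with the scrambled mimic and 430.4 with miR-483-3p. The mimic arrays were close to each other and lay below both controls, which differed more among themselves. Means were 449 ± 20.5 for miR-483-5p and 737 ± 93.2 for the scrambled mimic (SD, n = 2 each), a log2 difference of -0.67 (SE 0.16, 95% interval -1.06 to -0.28, limma adjusted p = 0.518). Against the same controls it was -0.73 with miR-483-3p (SE 0.20, adjusted p = 0.765), and the mimics differed from each other by 0.057 (95% interval -0.42 to 0.54). When single arrays were left out, the value for miR-483-5p ran from -0.80 to -0.55.

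The other 3 AGO2 probe sets are listed for CASC7 as well, a name that RefSeq now gives as a synonym of AGO2. Probe set 213310_at had 422 and 506 with miR-483-5p, 523 and 457 with the scrambled mimic and 469 with miR-483-3p. Here the groups overlapped, at a log2 difference of -0.077 (SE 0.17, limma adjusted p = 0.924, 95% interval -0.48 to 0.33). Probe set 225569_at had 397 and 304, 410.4 and 301, and 314, in the same order, so that each repeat was lower than its first array and the group means were nearly equal, at a difference of -0.018. Probe set 1561042_at had 35.9 and 88.2 with miR-483-5p, 74.6 and 101 with the scrambled mimic and 90.9 with miR-483-3p, where the first miR-483-5p array alone was low, at a difference of -0.40.

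A further probe set, 243304_at, is listed for CASC7 alone and is not counted among the 43. It had 57.0 and 50.8 with miR-483-5p, 35.9 and 20.9 with the scrambled mimic and 26.1 with miR-483-3p. Both miR-483-5p arrays lay above the controls, at a log2 difference of 0.52 (SE 0.18, limma adjusted p = 0.565). The 4 AGO2 probe sets counted among the 43 had log2 differences from -0.67 in 225827_at to -0.018 in 225569_at with miR-483-5p. Of these, only 225827_at had miR-483-5p arrays apart from the controls, and 243304_at went the other way. Whether these probe sets differ from each other was not tested.

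AGO1 and AGO3 were near the control. The brightest AGO1 probe set, 218287_s_at, had signals of 307 and 295 with miR-483-5p, 335 and 329 with the scrambled mimic and 299 with miR-483-3p. All mimic arrays lay under both controls, by little: the log2 difference was -0.13 with miR-483-5p (SE 0.15, 95% interval -0.48 to 0.23, limma adjusted p = 0.843) and -0.14 with miR-483-3p (SE 0.18, adjusted p = 0.997). In 222576_s_at the signals were 82.3 and 123 with miR-483-5p, 131 and 147 with the scrambled mimic and 119.6 with miR-483-3p. The arrays lay apart there too, at -0.36 (SE 0.19, adjusted p = 0.670), but the value was -0.14 without miR-483-5p array 1 and -0.58 without array 2. The other 2 AGO1 probe sets differed by 0.093 and 0.11 with overlapping arrays.

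The brightest AGO3 probe set, 219426_at, had 159 and 157 with miR-483-5p, 173 and 186 with the scrambled mimic and 146 with miR-483-3p. The mimic arrays again lay just under the controls, at log2 differences of -0.16 with miR-483-5p (SE 0.15, 95% interval -0.51 to 0.20, limma adjusted p = 0.806) and -0.25 with miR-483-3p (SE 0.18, adjusted p = 0.963). In the dimmer 241091_at, all mimic arrays instead lay above both controls. It had 54.1 and 62.1 with miR-483-5p, 50.9 and 52.3 with the scrambled mimic and 54.6 with miR-483-3p. The 3 dimmer AGO3 probe sets had signals between 28.9 and 85.9 and differed by 0.0045 to 0.11 with miR-483-5p. The last of them, 235782_at, was the member probe set just above the filter, with signals of 28.9 to 43.6, and the DICER1 probe set 216280_s_at, at 15.7 to 36.6, was just under it.

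**Figure D3:**
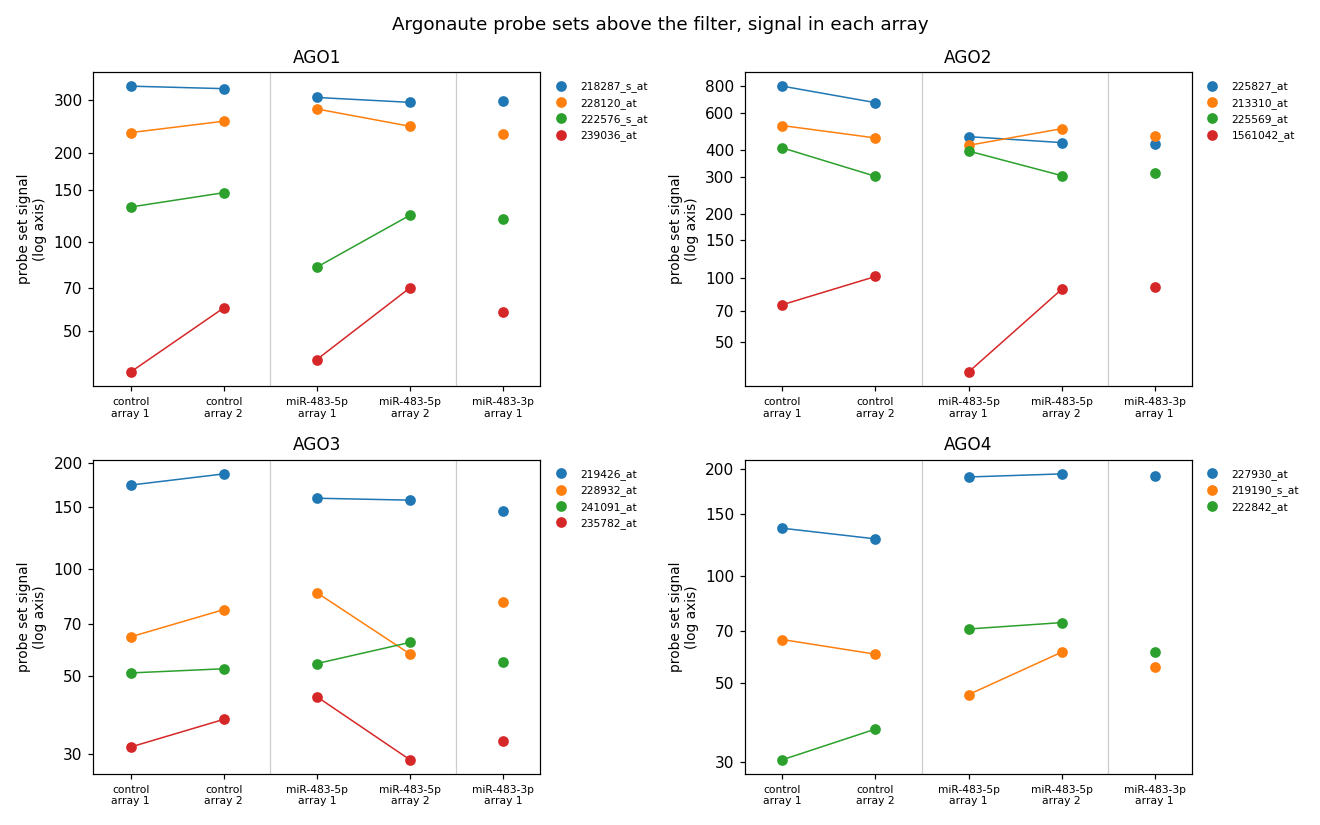
Signal of each Argonaute probe set above the filter (log axis) in each of the 5 arrays, with a line between the arrays of a pair. AGO2 225827_at is at 430.4 to 464 in the mimic arrays and at 671 and 803 in the controls, whereas the other AGO2 probe sets overlap; AGO4 227930_at is at 190.2 to 194 in the mimic arrays and at 127 and 137 in the controls.

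TNRC6A and TNRC6B are the large glycine and tryptophan rich proteins of the GW182 family that bind Argonaute and recruit deadenylases. TNRC6A has 6 probe sets, 1 of them under the filter. In the brightest, 224705_s_at, the signal was 657 and 575 with miR-483-5p, 655 and 562 with the scrambled mimic and 598 with miR-483-3p. First arrays matched first arrays and repeats matched repeats, so the log2 difference with miR-483-5p was 0.018 (SE 0.17, limma adjusted p = 0.987, 95% interval -0.38 to 0.42). The other TNRC6A probe sets tested differed by -0.0495 to 0.24 with miR-483-5p and by -0.32 to 0.25 with miR-483-3p. The value of 0.24 belongs to 224704_at, at 535 and 518 with miR-483-5p, 456 and 424 with the scrambled mimic and 443 with miR-483-3p (SE 0.15, adjusted p = 0.704).

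TNRC6B was dimmer in the miR-483-3p array than the control mean in all 7 of its probe sets, by 0.19 to 0.58 on the log2 scale, and below both control arrays in 6 of them. Over all probe sets, 35.6% had the miR-483-3p array below both controls. In the brightest, 1558142_at, the signal was 381 and 239.5 with miR-483-5p, 291 and 214 with the scrambled mimic and 204 with miR-483-3p. The spread within each pair was larger than the gap between the groups. Its log2 difference was 0.25 with miR-483-5p (SE 0.25, limma adjusted p = 0.813) and -0.26 with miR-483-3p (SE 0.30, adjusted p = 0.994). The first of these was -0.055 without miR-483-5p array 1 and 0.55 without array 2, and the latter was -0.064 without control array 1 and -0.46 without control array 2.

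The TNRC6B probe sets with the lowest p for miR-483-3p, named after their values were seen, were 213254_at and 228998_at. The first had 254 and 205 with miR-483-5p, 249 and 217 with the scrambled mimic and 145 with miR-483-3p. Only the miR-483-3p array stood apart, at a log2 difference of -0.58 from the control (SE 0.21, 95% interval -1.08 to -0.072, limma adjusted p = 0.832), and the miR-483-5p arrays were 0.55 above it (SE 0.21, adjusted p = 0.857). The other had 43.7 and 60.7 with miR-483-5p, 61.9 and 74.8 with the scrambled mimic and 37.3 with miR-483-3p, so that both mimics lay below the controls. Its log2 difference was -0.26 with miR-483-5p (SE 0.18, adjusted p = 0.731) and -0.53 with miR-483-3p (SE 0.22, adjusted p = 0.877), and the latter was -0.85 with a constant of 1 and -0.29 with 100.

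In 5 of the 7 TNRC6B probe sets, both first arrays (miR-483-5p and control) were brighter than both repeats. Among all 38 member probe sets this held for 12 (31.6%), beside 15.9% of all probe sets tested, and the opposite held for 3 (7.89%), beside 19.4%. The 12 also included 2 listed for DGCR8 and MIR1306, 2 of DICER1, 2 of TNRC6A and AGO2 225569_at. In 240044_x_at of TNRC6B, for example, the signals were 346 and 303 in the first arrays and 235 and 209 in the repeats. The labels do not say what the arrays of one order share, and the single miR-483-3p array, at 181 for this probe set, lay below the repeats.

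**Figure D4:**
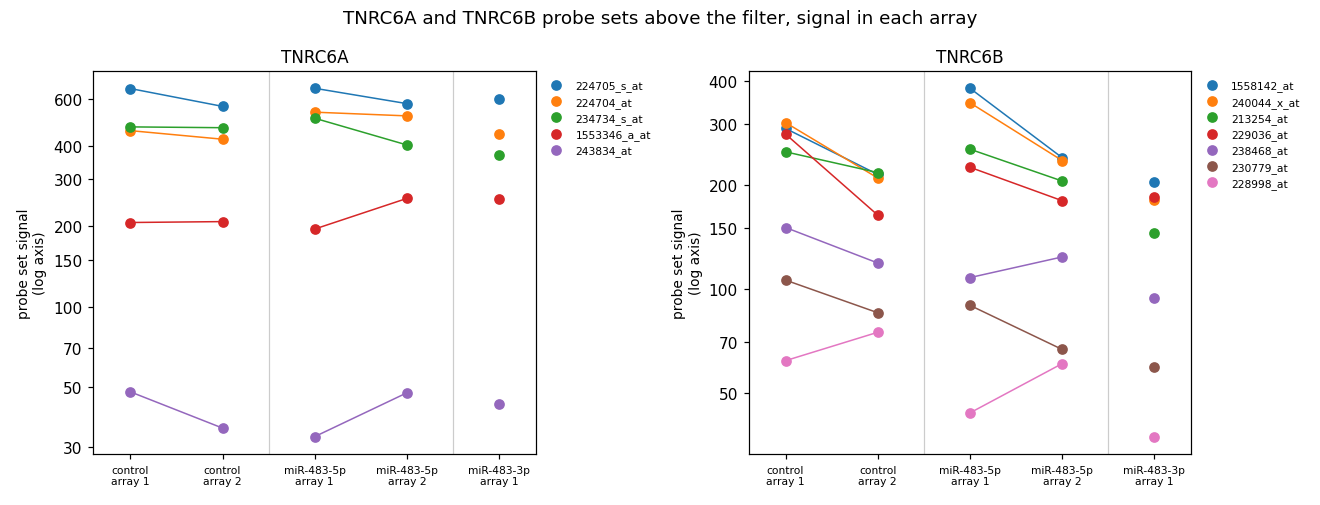
Signal of each TNRC6A and TNRC6B probe set above the filter (log axis) in each of the 5 arrays, with a line between the arrays of a pair. In TNRC6B, 6 of 7 probe sets are lower in the miR-483-3p array than in both controls, and in 5 both first arrays exceed both repeats.

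The other genes of the pathway were taken from lists of 72 genes by role, each gene represented by its brightest probe set with no other gene listed. Of these, 65 were above the filter, 49 higher and 16 lower with miR-483-5p, with a median log2 difference of 0.12 beside -0.0084 over the 14588 genes represented in this way, of which 48.5% were higher. With miR-483-3p, 43 were higher and 22 lower, with a median of 0.078 beside -0.0013, and 49.8% of all genes were higher. The counts by role that follow stand beside these same shares. Limma called 0 of them with an adjusted p under 0.05. At an unadjusted p under 0.05, it marked 5 higher (7.69%, beside 4.24% of all genes) and 2 lower (3.08%, beside 4.46%) with miR-483-5p. With miR-483-3p it marked 2 higher (3.08%, beside 1.79%) and none lower, beside 3.35%. These lists were assembled with earlier results of the same arrays known, and their medians describe them alone.

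Among cofactors of the microprocessor, 11 of 12 were higher with miR-483-5p (median 0.16), and 11 of 12 with miR-483-3p (median 0.15). The RNA helicase gene DDX5, which assists DROSHA, had signals of 288 and 296 with miR-483-5p, 163 and 158 with the scrambled mimic and 276 with miR-483-3p in probe set 225886_at. All mimic arrays lay above the controls, at log2 differences of 0.75 (SE 0.15, limma adjusted p = 0.516) and 0.68 (SE 0.18, adjusted p = 0.743). A far brighter probe set, 200033_at, listed for DDX5 together with MIR3064 and MIR5047, differed by 0.21 with miR-483-5p. The scaffold attachment factor gene SAFB was at 804 and 636 with miR-483-5p against 485 and 473, a difference of 0.55 (SE 0.17, adjusted p = 0.541), and its other probe sets gave 0.18 and 0.26.

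Of 6 genes for export and for partners of DICER1, 5 were higher with miR-483-5p (median 0.18), and 4 with miR-483-3p (median 0.10). TSNAX, a subunit of the nuclease that helps load the guide strand, had 896 and 708 with miR-483-5p against 589.6 and 536 in the controls, a log2 difference of 0.48 (SE 0.18, limma adjusted p = 0.577). All 8 chaperone genes of Argonaute loading that were tested, among them HSP90AA1 and FKBP4, were higher with miR-483-5p, by 0.017 to 0.34, with a median of 0.15, and in 7 of the 8 the arrays overlapped those of the control. FKBP4, HSP90AB1, STIP1 and DNAJA2 each also had at least 1 other probe set that was lower, and FKBP4 and HSP90AB1 had others that were higher. With miR-483-3p 7 of 8 were higher, with a median of 0.089. No chaperone had an unadjusted p under 0.05.

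The partners and regulators of Argonaute were mixed, with 9 of 15 higher with miR-483-5p, a median of 0.034 for miR-483-5p and -0.0066 for miR-483-3p. IPO8, an importin that binds Argonaute, was at 649.6 and 623 with miR-483-5p against 436 and 517 in the controls, a log2 difference of 0.40 (SE 0.16, limma adjusted p = 0.595), with -0.053 in its other probe set. ANKRD52, a subunit of the phosphatase that acts on AGO2, was at 192 and 149 against 259 and 231, a difference of -0.46 (SE 0.17, adjusted p = 0.583). The LIM-domain gene WTIP was at 75.0 and 64.4 against 96.6 and 106, a difference of -0.39 (SE 0.16, adjusted p = 0.592). TNRC6C, the third TNRC6 gene, had 382 and 224 with miR-483-5p, 268 and 189 with the scrambled mimic and 179 with miR-483-3p, with overlapping pairs and a difference of 0.33 (SE 0.27, adjusted p = 0.767), and its 4 other probe sets gave -0.29 to 0.60.

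Silencing effectors were higher in 11 of 15 genes with miR-483-5p and in 10 of 15 with miR-483-3p, each with a median of 0.14. The decapping enzyme gene DCP2 stood out among them, at 1138 and 935 with miR-483-5p, 510 and 561 with the scrambled mimic and 793 with miR-483-3p. The log2 difference was 0.91 (SE 0.17, limma adjusted p = 0.516) with miR-483-5p and 0.54 (SE 0.21, adjusted p = 0.849) with miR-483-3p, and its 3 other probe sets gave 0.37 to 0.67 with miR-483-5p. Of the genes for tailing and decay of hairpins and microRNAs, 5 of 8 were higher with miR-483-5p (median 0.023), and LIN28B was under the filter. Of the 4 germline Argonaute genes only PIWIL2 was above it, at a difference of -0.12.

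**Figure D5:**
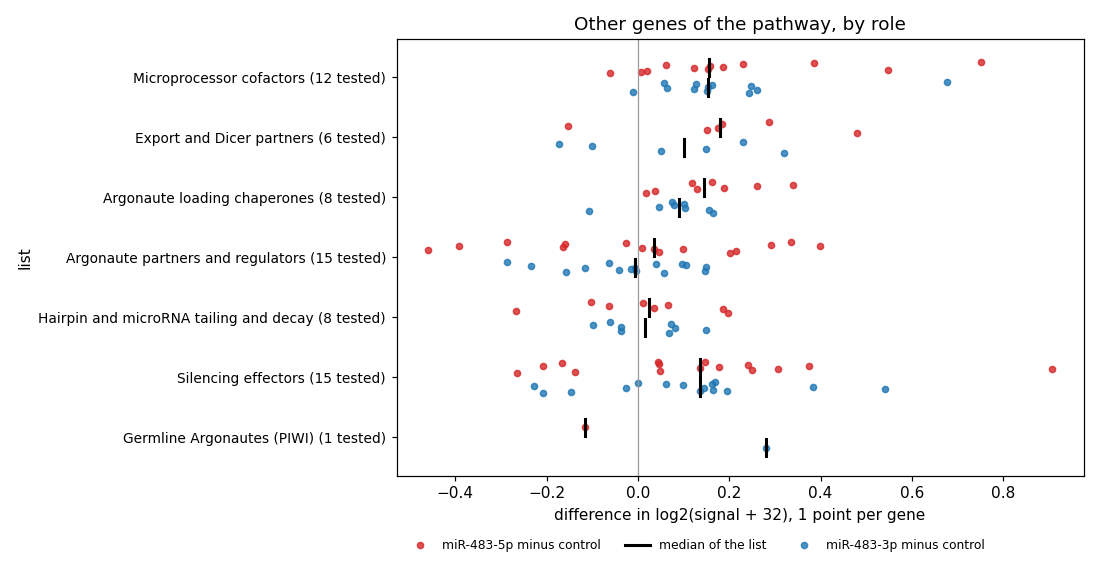
Difference in log2(signal + 32) from the control for each pathway gene above the filter, 1 point per gene, in red for miR-483-5p and in blue for miR-483-3p, with the median of each list as a black bar. Microprocessor cofactors and loading chaperones lie mostly right of 0, with 11 of 12 and 8 of 8 genes higher with miR-483-5p, and DCP2 is the farthest point at 0.91.

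The 3 genes with the profile most like AGO4 222842_at over the 5 arrays, by the distance between centred log2 profiles among 14578 candidate genes, were ZNF143-AS1, YAP1 and TIPIN, at distances of 0.072, 0.082 and 0.082. YAP1, a transcriptional coactivator of the Hippo pathway, had signals of 999.5 and 966 with miR-483-5p, 549 and 635 with the scrambled mimic and 854 with miR-483-3p. The replication fork gene TIPIN had 379 and 364, 199.6 and 234, and 325, in the same order. All were selected for this likeness, which is a description over 5 arrays.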

How the data were processed

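The authors deposited linear probe set intensity for 5 Affymetrix arrays, each scaled so that its mean without the top and bottom 2% is 150. GCOS and Partek are named in the submitters' processing notes, with no word on how signals were computed. No detection calls were used, so the distance of a dim probe set from background is unknown. Groups came from the labels. The 62 control probe sets were left out. Of the rest, 32768 reached the 40th percentile of mean log2(signal + 32), equal to a signal of 27.2, and were tested. The model had 1 mean for each group (limma 3.58.1, R 4.3.3), 2 residual and 4.66 prior degrees of freedom, two-sided tests and Benjamini-Hochberg adjustment over all of them, at a threshold of 0.05. Intervals are 95%. The fit was tested on simulated data. Symbols were brought up to date through RefSeq gene identifiers (GRCh38.p14), which 41043 of 41097 probe sets with 1 symbol matched.

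The members and lists were chosen with earlier results of these data known. By rule, signals of each array are given for each member's brightest probe set and for those with miR-483-5p and control arrays apart by at least 0.3 in log2. Signals of further probe sets of members and of CASC7 were added outside this rule. Of the lists, they are given for up to 3 genes per role with the lowest unadjusted p under 0.05, besides TNRC6C. The alternatives tried were a filter at the 60th percentile or none, median centring or quantile normalization of the arrays, constants of 1 and 100, 1 probe set per gene, a prior that follows intensity, leaving out each paired array, and a block for first arrays against repeats. Figures were drawn with matplotlib 3.10.9. The sequence of miR-483 was not used here.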

Additional observations from a re-analysis of the deposited data

How the results depend on the processing

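In each of the 3 comparisons, limma called 0 member probe sets and 0 of all probe sets tested in the main setting. The same held in those of the 13 alternatives that kept all 5 arrays. The filters, 1 probe set per gene and the prior that follows intensity leave each difference as it was. The block does so for miR-483-5p against the control, and leaving out a miR-483-5p array for miR-483-3p against the control. Differences between arrays that lie apart cannot reverse when a single array is left out. Of 437 single values under an alternative, which include those that could not change direction, 427 kept their direction and 10 did not. For miR-483-5p against the control, these were DICER1 212888_at and TNRC6A 224705_s_at, whose values ran from -0.20 to 0.11 and from -0.088 to 0.12 when single arrays were left out, and TNRC6B 1558142_at, from -0.055 to 0.55. For miR-483-3p, DGCR8 219811_at was 0.031 with median centring, 0.013 with quantile normalization and ran from -0.092 to 0.081 without single arrays, and TNRC6A 224705_s_at was 0.017 with median centring and ran from -0.13 to 0.085. A replicate block for first arrays against repeats left the counts at 0. It marked 4, 8 and 6 member probe sets at a limma unadjusted p under 0.05, in place of 4, 7 and 2. The shares of all probe sets marked rose as well, to 10.6%, 7.16% and 8.20%, in place of 8.33%, 5.60% and 5.71%. With that block TNRC6B 1558142_at was -0.51 with miR-483-3p (limma unadjusted p = 0.0467, adjusted p = 0.692), in place of -0.26. Deviations of the first arrays correlated at 0.17 between the pairs, and the labels do not pair arrays across groups. Median centring shifted all differences against the control by 0.035 to 0.037. With 2 arrays a group, or 1, the number of arrays limits the precision.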
